A study of Arabidopsis thaliana with 24 samples.

Results

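The comparison described here sets Arabidopsis seedlings that received both growth stimuli of the study, warmth and the compound Heatin, against seedlings that received neither. Its samples were chosen by their labels: 3 samples of 7-day-old seedlings grown at 27°C with 8.5 µM Heatin, and 3 of the same age grown at 22°C with the solvent DMSO alone, 6 of the 24 samples of the series. The seedlings with warmth alone (27°C, DMSO) and with Heatin alone (22°C, 8.5 µM Heatin), 3 samples each, were used to ask where the combined state lay beyond either stimulus. All 4 groups were wild-type Col-0 of the same age, were sampled as whole seedlings when the lights came on after a short-day night, and had DMSO in the medium. Each sample was a pool of RNA from 3 separate harvests, so the spread between replicates is that between pools, and a single accession was studied.

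Warm but harmless temperatures make Arabidopsis seedlings elongate. The transcription factor PIF4 accumulates, auxin is synthesised in the shoot, and the hypocotyl lengthens through auxin and brassinosteroid signalling. Auxin acts by removing the Aux/IAA repressors, whose own genes, together with the GH3 genes that conjugate surplus auxin to amino acids and the SAUR growth genes, are among the first to be transcribed. Heatin is a small molecule that the study selected because it lengthens hypocotyls.

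Expression was given as normalised reads, which are reads per gene divided by a depth factor for each sample. Differences are log2 differences of these values after adding 1, tested with limma and called at an adjusted p-value below 0.1. The combined samples had a median of 25022806 reads on genes (24852763 to 47828021), against 28840750 in the untreated samples (21906850 to 29804170). Markers of photosynthetic shoot tissue were present in every sample at high levels, and so were those of root endodermis (CASP1 and CASP2), as whole seedlings should have.

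Growth with both stimuli changed the level of most genes. Of 23252 genes tested, 6935 were higher (29.8%) and 7905 lower (34.0%) in Heatin at 27°C than in DMSO at 22°C. Beyond a 2-fold change there were 1316 higher genes (5.66%) and 2012 lower ones (8.65%). Without the 2-fold limit, the direction with more genes depended on the scaling. Higher and lower genes numbered 7551 and 7270 with edgeR, 7516 and 7284 with limma-voom, 7600 and 7296 with TMM scaling and 7637 and 7150 with quantile normalisation. In the other alternative analyses the lower genes were more numerous. The 3 combined samples lay all above the 3 untreated samples for 7035 genes (30.3%) and all below them for 7950 (34.2%). The median size of the log2 difference over all genes was 0.377, against 0.360 for warmth alone and 0.0986 for Heatin alone, each set against untreated seedlings. Set against Heatin alone, the combined state had 6832 higher genes (29.4%) and 7788 lower genes (33.5%), an order that also turned with edgeR, limma-voom, TMM scaling and quantile normalisation. Set against warmth alone it had 540 higher genes (2.32%) and 720 lower genes (3.1%), with a median size of 0.108. The last 2 counts depended on single libraries: without replicate 1 of Heatin at 27°C there were 303 higher genes and without replicate 1 of DMSO at 27°C 337, while the lower genes numbered 394 without replicate 1 of DMSO at 27°C, 420 without replicate 2 of Heatin at 27°C and 478 without replicate 3 of DMSO at 27°C. The 4 groups share samples between these contrasts, so the counts are not independent of each other.

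The 10 largest rises among genes with a mean of at least 50 normalised reads were led by a cytochrome P450 gene. CYP71B19 (AT3G26170), which encodes a cytochrome P450, had 884, 942 and 962 normalised reads in Heatin at 27°C, against 42.3, 39.7 and 38.8 in DMSO at 22°C. The groups were far apart, with a log2 difference of 4.50 ± 0.10 (SE, limma adjusted p = 7.85e-14). BCB (AT5G20230), a blue copper-binding protein, had 3669.8, 5919 and 3907 normalised reads in the combined samples, against 274, 466 and 102 in the untreated ones. Its difference was 4.22 ± 0.46 (SE, limma adjusted p = 9.18e-07), although the untreated samples varied several-fold among themselves. DIN2 (AT3G60140), a β-glucosidase known to be induced in darkness and by sugar shortage, reached 7132, 9616 and 6129 normalised reads with both stimuli, against 561, 761 and 378 without. THA1 (AT1G08630), the threonine aldolase that degrades threonine to glycine, reached 13463, 20670 and 12227, against 1279.7, 1582 and 856. Their differences were 3.78 ± 0.22 (SE, limma adjusted p = 9.42e-10) and 3.65 ± 0.22 (SE, limma adjusted p = 1.54e-09). The class I small heat shock protein HSP17.4 (AT3G46230) had 574, 803 and 611 normalised reads, against 45.0, 64.2 and 47.4, a difference of 3.64 ± 0.15 (SE, limma adjusted p = 4.33e-11).

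The other rises of this group were GLYI7, annotated as a glyoxalase I family protein (4.05), the vacuolar water channel BETA-TIP (3.9), the berberine bridge enzyme family member AT5G44440 (3.66), the leucine-rich repeat protein AT2G15880 (3.52) and the 12S seed storage protein CRA1 (3.6). For GLYI7, BETA-TIP, THA1 and HSP17.4, another gene model overlaps on the opposite strand, and reads were counted without strand. Reads of the shared stretch may thus belong to the other gene, or may have been left out as ambiguous. CRA1 stood on few samples: its combined values were 101, 380.1 and 32.6 normalised reads, against 9.55, 9.44 and 5.75 in untreated seedlings. Replicate 2 was the high one, its adjusted p was 0.0158 in limma, and with limma-voom on whole reads it was 0.209.

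CYP71B19 was also raised by Heatin at both temperatures, by 1.5 ± 0.10 (SE, limma adjusted p = 5.27e-07) at 22°C and 0.51 ± 0.10 (SE, limma adjusted p = 0.00613) at 27°C. For 8 of the 10 rises Heatin was called at neither temperature. The exceptions were CYP71B19 and HSP17.4. With Heatin alone HSP17.4 had 28.4, 33.5 and 31.4 normalised reads and was lower than in untreated seedlings, by -0.71 ± 0.15 (SE, limma adjusted p = 0.031). At 27°C it was higher with Heatin than with DMSO, by 0.56 ± 0.15 (SE, limma adjusted p = 0.0565), a call lost without replicate 1 of DMSO at 27°C (adjusted p = 0.228), replicate 3 of that group (0.134) or replicate 2 of Heatin at 27°C (0.248). GLYI7, for instance, had 2369, 3201 and 2456 normalised reads with warmth alone, where both warm groups overlapped, and 223, 114 and 209 with Heatin alone.

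The 10 largest falls were led by AT2G15020, whose product is uncharacterised. It had 3.12, 6.33 and 2.45 normalised reads in Heatin at 27°C, against 603, 668 and 754 in DMSO at 22°C, a log2 difference of -7.16 ± 0.32 (SE, limma adjusted p = 7.13e-11). AT1G29720, a leucine-rich repeat receptor kinase, had 1.56, 6.33 and 1.63 normalised reads, against 126, 179 and 154, so that the combined samples lay close to the counting limit and far below the untreated ones. Its difference was -5.38 ± 0.40 (SE, limma adjusted p = 1.26e-08). Root hair genes were among them. LRX1 (AT1G12040), a leucine-rich repeat extensin of the root hair wall, had 12.5, 4.75 and 8.98 normalised reads with both stimuli, against 186, 239.8 and 201 in untreated seedlings, and differed by -4.51 ± 0.28 (SE, limma adjusted p = 1.99e-09). COBL9 (AT5G49270), which is needed for tip growth of root hairs, had 18.7, 3.167 and 9.79, against 157, 162 and 145, and differed by -4.02 ± 0.37 (SE, limma adjusted p = 1.62e-07). FRO5 (AT5G23990), a metal reductase, had 29.6, 6.33 and 31.8, against 399.7, 329 and 263, and differed by -4.07 ± 0.39 (SE, limma adjusted p = 1.98e-07). None of these combined samples reached the lowest untreated sample.

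The remaining falls were the lipid transfer protein LTP6 (-4.16), the putative membrane lipoprotein AT4G29030 (-3.96), the thionin AT1G66100 (-3.83), the major latex protein MLP423 (-3.79) and the plastid phosphoenolpyruvate translocator PPT2 (-3.78). AT1G66100 overlaps another gene model on its own strand, so its share of the reads is uncertain. Warmth alone also lowered each of the 10 falls, by -1.53 (FRO5) to -6.58 (AT2G15020 and AT1G29720). AT2G15020, AT1G29720, LTP6 and PPT2 were not called between the warm groups (limma adjusted p = 0.402, 0.129, 0.239 and 0.702). LRX1, COBL9, FRO5, AT4G29030, AT1G66100 and MLP423 were lower with both stimuli than with warmth alone.

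**Figure D1:**
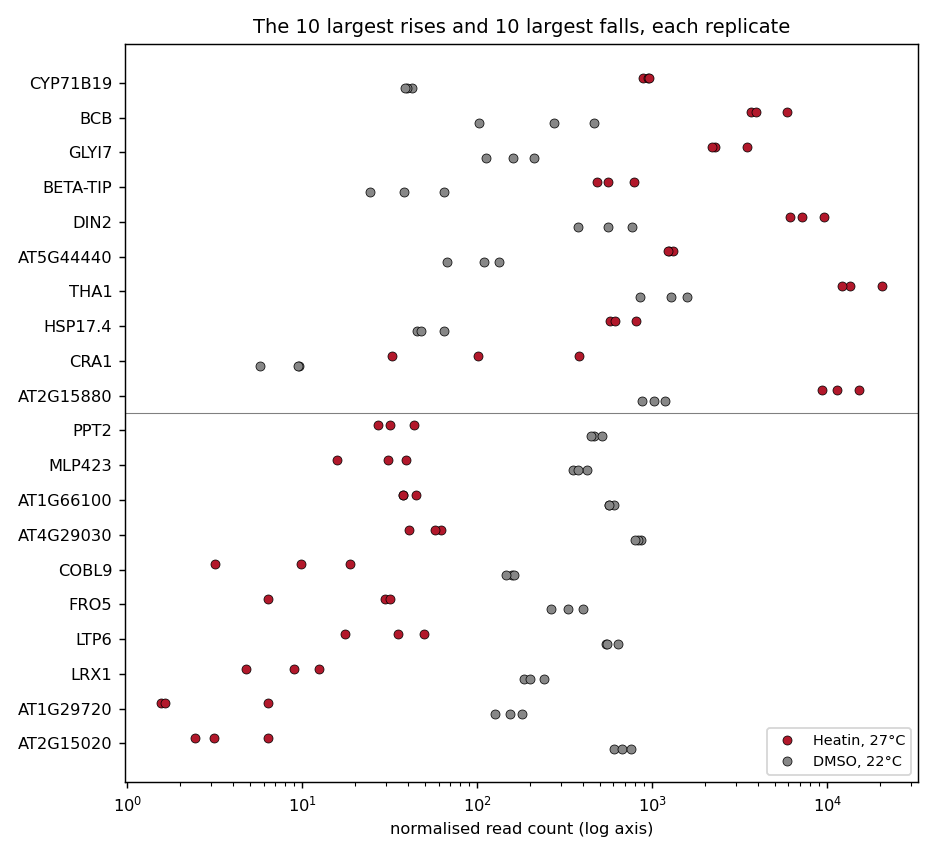
Normalised read counts (horizontal log axis) of the 10 largest rises (upper part) and 10 largest falls (lower part), 1 row per gene, with 1 red point per sample of Heatin at 27°C and 1 grey point per sample of DMSO at 22°C. The 3 red points of CYP71B19 lie between 884 and 962 and its 3 grey points between 38.8 and 42.3, and the red points of CRA1 are spread between 32.6 and 380.1.

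The genes of known pathways were counted by list and are given beside the shares of all genes tested (29.8% higher, 34.0% lower, median log2 difference -0.03). The lists were chosen with earlier results of these data known.

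Most photosynthesis genes fell. Of 17 genes of chlorophyll synthesis 16 fell, with a median difference of -1.13. DVR, the divinyl reductase of that pathway, had 650.1, 532 and 628 normalised reads in Heatin at 27°C, against 2356, 2126 and 2195 in DMSO at 22°C. GUN4, which activates magnesium chelatase, had 4493, 3698 and 5211, against 12965, 12795 and 13389. Their differences were -1.89 ± 0.08 (SE, limma adjusted p = 6.75e-11) and -1.56 ± 0.10 (SE, limma adjusted p = 3.59e-09). Of the 21 genes of the light-harvesting antenna, 17 fell and 1 rose, with a median of -0.67, and LHCB2.3 changed the most, at 17735, 11802 and 15515 normalised reads, against 57027, 59637 and 59997. RBCS1B, a small subunit of Rubisco, had 6829.7, 5094 and 6028, against 40110, 38923 and 38391, a difference of -2.72 ± 0.10 (SE, limma adjusted p = 1.40e-11). Between the combined state and warmth alone, limma called 0 genes of either list, with 3 chlorophyll genes and 0 antenna genes at an unadjusted p under 0.05, while edgeR called 0 and DESeq2 1 chlorophyll gene. With quantile normalisation the antenna genes LHCB1.3, LHCA4 and LHCB4.1 did not fall.

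Summed over 8 photosynthetic shoot markers, the combined samples held 1322747 to 1409281 normalised reads, those with warmth alone 1302080 to 1524699, those with Heatin alone 2237911 to 2508177 and the untreated ones 2434378 to 2457281. All 8 markers fell. In whole seedlings, fewer cells of a type and less RNA per cell cannot be told apart, and the part of tissue proportions in the photosynthesis results was not tested.

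Clock genes changed as widely. Of 17, 11 rose and 4 fell, with a median of 1.13, and between the combined state and warmth alone 0 were called by limma, edgeR or DESeq2 and 0 had an unadjusted p under 0.05. LHY, a repressor that peaks around dawn, had 11330, 9508 and 10362 normalised reads with both stimuli, against 27853, 30273 and 28546 in untreated seedlings (-1.48 ± 0.06 (SE, limma adjusted p = 4.88e-11)). The evening gene GI had 563, 801 and 625, against 149, 155 and 141 (2.14 ± 0.13 (SE, limma adjusted p = 1.99e-09)), and PRR7, a repressor of LHY, had 4747, 6412 and 5208, against 1153, 1089.5 and 945 (2.35 ± 0.10 (SE, limma adjusted p = 5.13e-11)).

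Heat shock genes rose in part: 9 of 15 were higher and 4 lower, with a median of 1.12. The lower count was 2 without replicate 2 of Heatin at 27°C and also with edgeR, limma-voom or TMM scaling. HSP90.1 had 2887, 3663 and 3639.7 normalised reads in the combined samples, against 664, 738 and 919 in untreated ones (2.14 ± 0.10 (SE, limma adjusted p = 1.41e-10)). HSP70-2, a cytosolic chaperone, had 579.9, 535 and 552 normalised reads in the combined samples, 297, 341 and 332 with warmth alone, 303, 251 and 276 with Heatin alone and 267, 227 and 274 in untreated seedlings. It was above every other group, by 0.78 ± 0.10 (SE, limma adjusted p = 0.000232) over warmth alone. HSP101, the disaggregase of heat tolerance, had 1119, 1278 and 1182 in the combined samples, 1007, 998 and 1023 with warmth alone, 617, 639 and 642 with Heatin alone and 633, 604 and 622 in untreated seedlings. Among 12 cold-response genes 2 rose (4 without replicate 3 of DMSO at 22°C) and 5 fell, and KIN1, a cold-induced protective protein, had 15.6, 17.42 and 17.1 normalised reads with both stimuli, against 122.8, 185 and 182 (-3.19 ± 0.21 (SE, limma adjusted p = 3.69e-09)).

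PIF4, the central factor of warmth-induced growth, had 7439, 8369 and 8552 normalised reads in Heatin at 27°C, against 3525, 3686 and 3602 in DMSO at 22°C (1.17 ± 0.06 (SE, limma adjusted p = 1.33e-10)). With warmth alone it had 7767, 7939 and 8582, and the difference between the warm groups was 0.00 ± 0.06 (SE, limma adjusted p = 0.989). Of the 13 PIF factors and their HLH partners, 6 rose and 6 fell. IBH1, an HLH inhibitor of cell elongation, was above each other group, with 1419, 1257 and 1275 normalised reads in the combined samples, 835, 901 and 932 with warmth alone, 803, 796 and 786 with Heatin alone and 546, 478 and 611 in untreated seedlings. Its difference over warmth alone was 0.57 ± 0.08 (SE, limma adjusted p = 0.000701).

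Of 13 brassinosteroid genes 9 rose and 1 fell, with a median of 0.21, and the biosynthesis gene CPD had 32710, 37384 and 37730 normalised reads with both stimuli, against 18853, 20873 and 20891 without (0.83 ± 0.08 (SE, limma adjusted p = 1.28e-07)). Of 10 gibberellin oxidases 2 rose (1 without replicate 2 of DMSO at 22°C) and 2 fell, and GA20OX1, which makes gibberellin precursors, had 108, 119 and 139.6, against 53.2, 69.9 and 53.2 (1.04 ± 0.20 (SE, limma adjusted p = 0.000316)). Of 11 ethylene synthesis genes 4 rose and 1 fell. Between the combined state and warmth alone, 0 genes of these 3 lists were called by limma, edgeR or DESeq2, and 2 brassinosteroid genes, 0 gibberellin genes and 1 ethylene gene had an unadjusted p under 0.05.

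Auxin synthesis genes mostly fell: 11 of 16 were lower and 3 higher, with a median of -0.55. TAA1, which makes the indole-3-pyruvate used for auxin, had 363, 340.5 and 397 normalised reads in the combined samples, against 694, 679.8 and 555 in untreated ones (-0.80 ± 0.10 (SE, limma adjusted p = 3.49e-06)). YUC8, the next enzyme and a PIF4 target, was among the 3 that rose, with 737, 759 and 775, against 525, 516 and 514 (0.55 ± 0.06 (SE, limma adjusted p = 1.91e-06)). Of the 28 Aux/IAA repressors tested 18 rose and 4 fell (median 0.30), and of 72 SAUR genes 21 rose and 11 fell (median 0.12). IAA19 had 1267, 1026 and 1343 normalised reads in Heatin at 27°C, 901, 674 and 911 with warmth alone, 1095, 1091 and 1200.2 with Heatin alone and 655, 578 and 708 in untreated seedlings. The combined samples thus stood above warmth alone, by 0.55 ± 0.12 (SE, limma adjusted p = 0.0136), but close to those with Heatin alone, from which they differed by 0.09 ± 0.12 (SE, limma adjusted p = 0.51). IAA20 showed the other order, with 87.3, 68.1 and 49.0 normalised reads in the combined samples, 61.4, 114 and 55.1 with warmth alone, 16.2, 13.6 and 6.27 with Heatin alone and 12.3, 13.2 and 8.62 in untreated seedlings.

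Among wall enzymes, 11 of 31 XTH genes, whose products cut and rejoin xyloglucan, rose and 10 fell, while of 20 α-expansins, which loosen the wall, 4 rose and 12 fell (median -0.45). XTH24 had 33969, 44665 and 37182 normalised reads with both stimuli, against 3428, 4515 and 3047 without (3.41 ± 0.13 (SE, limma adjusted p = 1.10e-11)). EXPA1 had 2571, 2276 and 2505, against 7538, 6841 and 6656 (-1.52 ± 0.07 (SE, limma adjusted p = 4.83e-11)). Of 12 flavonoid genes 1 rose and 7 fell, and of 15 genes of salicylic acid defence 3 rose and 6 fell. ICS1, the enzyme that starts salicylic acid synthesis, had 313, 289.8 and 282 normalised reads in the combined samples, against 761, 812 and 819 in untreated ones (-1.43 ± 0.07 (SE, limma adjusted p = 2.68e-10)).

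**Figure D2:**
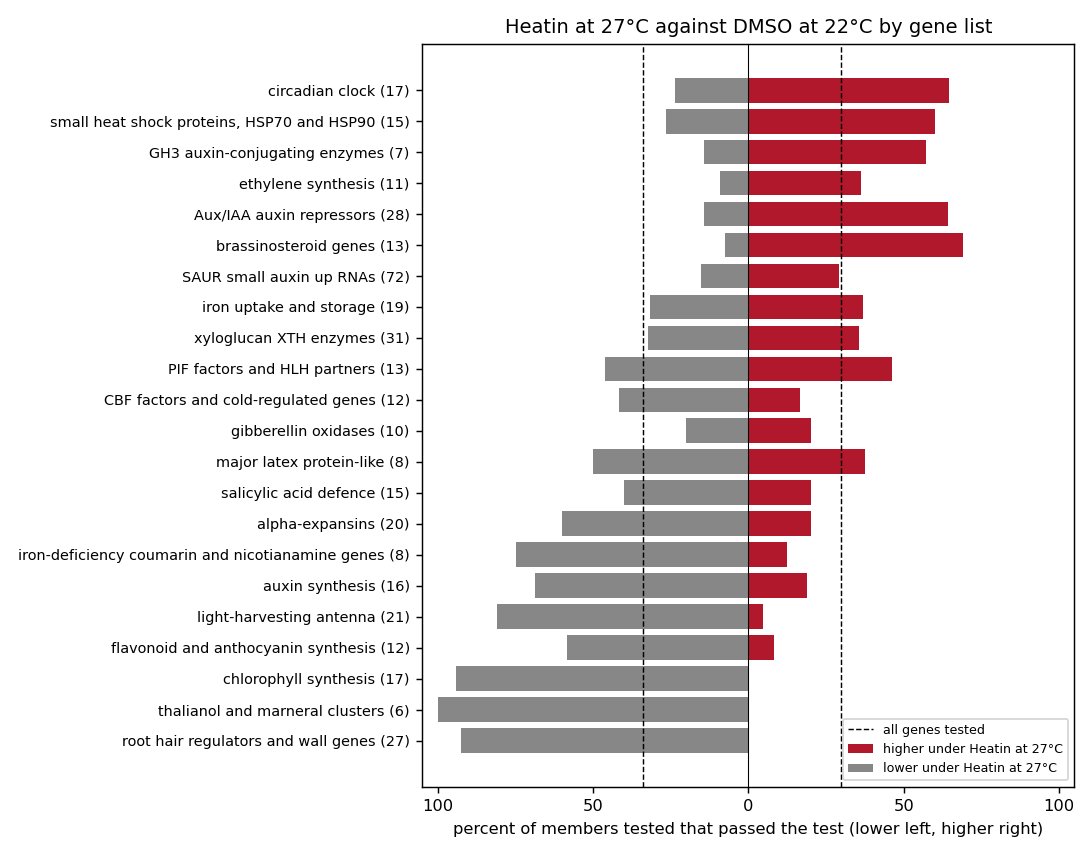
For each gene list, ordered by its median log2 difference, the percent of its tested members (their number in brackets) that were higher (red, to the right) or lower (grey, to the left) in Heatin at 27°C than in DMSO at 22°C, with the percent of all genes tested as dashed lines. The grey bars of chlorophyll synthesis (16 of 17) and of the root hair list (25 of 27) pass the dashed line of 34.0%, and the red bar of clock genes (11 of 17) passes that of 29.8%. The root hair list and that of coumarin and nicotianamine genes were drawn up after their values were seen, so their bars are a description only.

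The genes at an extreme in the combined state were those above or below each of the 3 other groups. There were 107 above (0.460% of genes tested) and 258 below (1.11%), where the largest of the 3 p-values of a gene was used. Of the 107, 47 were also called as raised by warmth alone and not by Heatin alone, 32 by both, 2 by Heatin alone only and 26 by neither. Of the 258, 162 were called as lowered by warmth alone only, 27 by both, 1 by Heatin alone only and 68 by neither. Of all 23252 genes tested, warmth alone was called for 14360 in either direction and Heatin alone for 574. A difference of equal size was thus called more readily for warmth. AT2G05510, 1 of the 107, differed by 0.61 with either stimulus alone (limma adjusted p = 0.0337 for warmth, 0.263 for Heatin). There were 58, 67 and 59 genes above without replicate 1 of DMSO at 27°C, replicate 1 of Heatin at 27°C and replicate 2 of Heatin at 27°C, and 138, 163 and 111 below without replicate 1 of DMSO at 27°C, replicate 2 of DMSO at 27°C and replicate 2 of Heatin at 27°C.

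The 8 with the largest rise beyond every other group were led by AT4G13190, a protein kinase family member, and the auxin gene GH3.3. GH3.3 (AT2G23170), an acyl amido synthetase that conjugates auxin to amino acids, had 5272, 5387 and 4149.7 normalised reads in Heatin at 27°C, 943, 776 and 1226 with warmth alone, 1424, 1204 and 1282 with Heatin alone and 495, 553 and 438 in DMSO at 22°C. The combined samples lay above all others, and the single-stimulus groups overlapped each other while lying above the untreated one. The combined difference was 3.31 ± 0.14 (SE, limma adjusted p = 3.58e-11), against 0.97 for warmth alone and 1.40 for Heatin alone, and over warmth alone it was 2.35 ± 0.14 (SE, limma adjusted p = 1.62e-07). GH3.5, which also conjugates auxin, had 8198, 9804 and 8598 normalised reads in the combined samples, 6633, 7366 and 7569 with warmth alone, 5415, 5433 and 5106 with Heatin alone and 5265, 5849.9 and 4754 in untreated seedlings. Of the 7 GH3 genes tested 4 rose and 1 fell between the combined and the untreated state, and 4 were higher than with warmth alone, where 2.32% of all genes were. Over the alternative analyses the last count ranged between 2 and 5, with the lower values without replicate 2 of Heatin at 27°C and in the fit of all 24 samples.

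AT4G13190 had 260.3, 249 and 198 normalised reads in the combined samples, 40.9, 38.7 and 53.7 with warmth alone, 35.2, 34.7 and 35.5 with Heatin alone and 36.8, 22.7 and 27.3 in untreated seedlings, so that the combined group lay far above the others. Warmth alone also lay above the untreated samples, by 0.62 ± 0.20 (SE, limma adjusted p = 0.0144). The combined samples exceeded warmth alone by 2.38 ± 0.20 (SE, limma adjusted p = 3.28e-06). CLE44, which encodes the TDIF peptide of vascular development, lies on the same strand in an overlapping gene model and is likewise among the 8, with 147, 174 and 124 in the combined samples, against 46.4, 26.4 and 46.0 in untreated ones. Reads of this pair cannot be assigned to one gene with certainty.

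The β-galactosidase BGAL7 (AT5G20710) had 669, 662 and 597 normalised reads with both stimuli, 263, 297 and 288 with warmth alone, 203, 223 and 232 with Heatin alone and 94.1, 111 and 108 in untreated seedlings. The peroxidase PA2 had 251, 247 and 247 with both stimuli, 99.6, 78.4 and 100.5 with warmth alone, 59.6, 52.1 and 77.4 with Heatin alone and 28.6, 37.8 and 43.1 in untreated seedlings. Both single stimuli raised these 2 genes, and the combined state exceeded warmth alone by 1.18 ± 0.10 (SE, limma adjusted p = 3.28e-06) for BGAL7 and by 1.42 ± 0.18 (SE, limma adjusted p = 0.000245) for PA2. GolS2, a galactinol synthase known from water stress, had 162, 91.8 and 132 normalised reads with both stimuli, 43.7, 24.6 and 29.3 with warmth alone, 35.2, 42.2 and 50.2 with Heatin alone and 24.6, 24.5 and 48.8 in untreated seedlings. The glycine-rich protein AT2G05510 and the berberine bridge enzyme family member AT1G30760 exceeded warmth alone by 1.44 and 1.31.

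The largest falls below every other group were again of root hair genes and of genes active in roots. Besides LRX1 and FRO5 they were XTH14, the arabinogalactan protein AGP3, the proline-rich wall protein PRP3, MOP10 (also called PRPL1, which controls root hair elongation), the root hair expansin EXPA7 and SLAH1, a root anion channel subunit. LRX1 had 32.7, 46.3 and 27.2 normalised reads with warmth alone and 141, 126 and 87.8 with Heatin alone, so the combined samples were lower than those of warmth alone by -1.96 ± 0.28 (SE, limma adjusted p = 0.000773). XTH14 had 15.6, 11.1 and 13.1 normalised reads in the combined samples, 43.7, 53.9 and 44.7 with warmth alone, 79.9, 124 and 62.7 with Heatin alone and 121, 127 and 99.1 in untreated seedlings. PRP3 had 15.6, 14.3 and 16.3 with both stimuli, 45.0, 70.9 and 26.5 with warmth alone, 127, 126 and 89.9 with Heatin alone and 186, 202 and 129 in untreated seedlings. For both, warmth alone lay between the untreated and the combined samples. Heatin alone overlapped the untreated samples for XTH14 and lay below them for PRP3, where its difference was not called (-0.58 ± 0.28 (SE, limma adjusted p = 0.412)). Another gene model overlaps EXPA7 on the opposite strand, so its share of the reads is uncertain.

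A list of 27 root hair regulators and wall genes was drawn up after these values were seen and is described only. Of its genes 25 fell between the combined and the untreated state (median -2.48), 12 were lower than with warmth alone (3.1% of all genes were), and 8 were below each other group (1.11% of all genes). RHD6, the factor that starts hair formation, had 24.9, 44.3 and 41.6 normalised reads in Heatin at 27°C, against 60.0, 60.4 and 81.9 in DMSO at 22°C (-0.88 ± 0.22 (SE, limma adjusted p = 0.00255)). RSL4, the factor that sets hair length, had 3.12, 4.75 and 7.34, against 27.3, 26.4 and 21.5 (-2.16 ± 0.43 (SE, limma adjusted p = 0.000434)). GL2, the factor that represses hair fate in the other epidermal cells, fell too, with 219.8, 226 and 285 in the combined samples, 325, 337 and 375 with warmth alone, 382, 393 and 429 with Heatin alone and 693, 682 and 626 in untreated seedlings.

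The other root markers were mixed. CASP1, which marks the Casparian strip of the endodermis, had 1434, 1227 and 1450.2 normalised reads with both stimuli, against 1437, 1433 and 1523 without (-0.10 ± 0.06 (SE, limma adjusted p = 0.195)). CASP2 differed by 0.13. Neither was called by limma, while edgeR and limma-voom each called 1 of the 9 root markers higher and DESeq2 called 0. Over the 9 root markers, 3 of which are root hair genes, the sum was 6296 to 7024 in combined samples, 6761 to 7648 with warmth alone, 10717 to 11797 with Heatin alone and 10784 to 11030.1 in untreated seedlings. Of these 9, 6 fell in limma. The count of root hair genes lower than with warmth alone ranged between 7 and 13 over the alternative analyses and was 7 in the fit of all 24 samples.

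**Figure D3:**
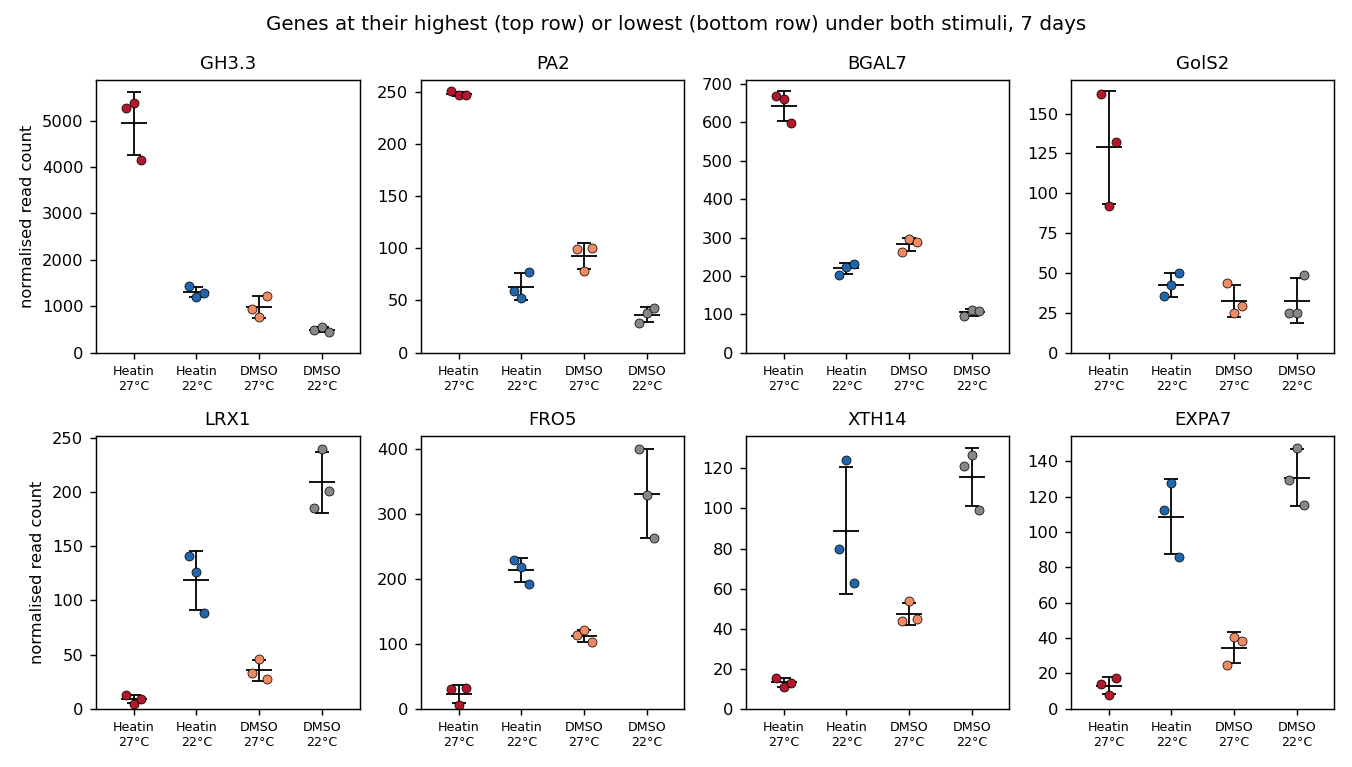
Normalised read counts (vertical linear axis starting at 0, a scale per gene) of 4 genes above every other group (upper row) and 4 below every other group (lower row) in the 4 groups of 7-day-old seedlings, with 1 point per sample and the mean with its SD as bars. GH3.3 lies between 4149.7 and 5387 in the 3 combined samples and at most at 1424 elsewhere, and LRX1 lies at most at 12.5 in the combined samples and at least at 27.2 elsewhere.

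The upstream sequences of 4 root hair genes that fell are shown with part of the element described for root hair promoters. Its core was searched as GCACGT on both strands in the 250 bases before each gene's annotated start, taken from the RefSeq genome of build TAIR10.1. It occurs in 8 of the 27 root hair windows (29.6%) and in 862 of the 23077 windows of all tested genes (3.74%). It occurs in 18 of 257 windows (7.00%) of genes below each other group and in 1 of 107 of those above. The letters overlap with the G-box CACGTG where a G follows. In the windows below, read 5′ to 3′ on the gene's strand, the capitals mark each match on either strand.
LRX1, chr1:4069742-4069991, plus strand: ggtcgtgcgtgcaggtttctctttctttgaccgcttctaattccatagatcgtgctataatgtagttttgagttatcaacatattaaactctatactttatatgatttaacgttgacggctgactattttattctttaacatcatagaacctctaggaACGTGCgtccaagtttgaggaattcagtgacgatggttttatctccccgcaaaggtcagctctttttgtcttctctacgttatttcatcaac
EXPA7, chr1:4276255-4276504, plus strand: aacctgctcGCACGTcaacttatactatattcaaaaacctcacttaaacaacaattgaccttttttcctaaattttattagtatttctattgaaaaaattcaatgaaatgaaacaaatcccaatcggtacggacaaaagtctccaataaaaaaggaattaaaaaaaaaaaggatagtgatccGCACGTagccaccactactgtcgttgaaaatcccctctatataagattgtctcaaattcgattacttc
COBL9, chr5:19974531-19974780, minus strand: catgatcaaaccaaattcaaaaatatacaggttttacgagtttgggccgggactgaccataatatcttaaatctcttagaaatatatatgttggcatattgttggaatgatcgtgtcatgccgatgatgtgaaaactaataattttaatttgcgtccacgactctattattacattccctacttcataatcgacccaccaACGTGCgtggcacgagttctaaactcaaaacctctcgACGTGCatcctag
EXPA18, chr1:23331313-23331562, plus strand: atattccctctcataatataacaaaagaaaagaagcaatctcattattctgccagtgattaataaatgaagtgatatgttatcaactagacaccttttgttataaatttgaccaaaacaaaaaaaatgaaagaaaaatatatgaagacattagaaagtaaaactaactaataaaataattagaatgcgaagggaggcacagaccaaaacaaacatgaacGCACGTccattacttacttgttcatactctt

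XTH14, AGP3, PRP3 and MOP10 fell as well and have no match in their windows. EXPA18, also a root hair expansin, had 6.24, 9.502 and 8.98 normalised reads with both stimuli, against 85.9, 75.5 and 77.6 in untreated seedlings.

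For GH3.3 and GH3.5, which rose, the auxin element TGTCTC is shown in the same way. It occurs in 3 of 7 GH3 windows (42.9%), in 9 of 28 Aux/IAA windows (32.1%) and in 2498 of the 23077 windows of all tested genes (10.8%). Since 4 of the 7 GH3 genes rose, not every GH3 gene that rose has the element in its window.
GH3.3, chr2:9866563-9866812, minus strand: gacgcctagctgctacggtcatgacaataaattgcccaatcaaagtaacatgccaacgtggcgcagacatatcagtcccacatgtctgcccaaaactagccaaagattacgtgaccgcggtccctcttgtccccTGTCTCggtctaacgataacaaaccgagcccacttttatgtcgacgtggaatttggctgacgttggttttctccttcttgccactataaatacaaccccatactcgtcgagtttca
GH3.5, chr4:13653329-13653578, plus strand: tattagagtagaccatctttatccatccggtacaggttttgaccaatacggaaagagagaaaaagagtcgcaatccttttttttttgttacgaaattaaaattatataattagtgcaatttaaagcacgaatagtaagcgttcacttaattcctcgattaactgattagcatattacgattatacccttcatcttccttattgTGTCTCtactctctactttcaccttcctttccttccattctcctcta

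A match is a description of the letters and not evidence of binding.

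The triterpene clusters that make thalianol and marneral in roots were lower with both stimuli than with neither or with warmth alone. All 6 genes tested fell between the combined and the untreated state (median -1.39), and all 6 were lower than with warmth alone, where 3.1% of all genes were. Against Heatin alone 3 were lower and 1 higher (median -0.06), where 33.5% and 29.4% of all genes were. The 3 lower ones became 0 without replicate 2 of Heatin at 22°C and 1 without replicate 1 of that group or replicate 2 or 3 of Heatin at 27°C. THAS1, the thalianol synthase, had 187, 188 and 175 normalised reads in Heatin at 27°C, 293, 289 and 349 with warmth alone, 254, 242 and 194 with Heatin alone and 595, 634 and 957 in DMSO at 22°C. The samples of each stimulus alone also lay below the untreated ones. MRO, the marneral oxidase, had 117, 80.8 and 93.0 normalised reads with both stimuli, 282, 213 and 244 with warmth alone, 129, 140.1 and 109 with Heatin alone and 237, 249 and 267 in untreated seedlings. For MRO the samples with warmth alone overlapped the untreated ones, and both Heatin groups lay below. Among 8 major latex protein-like genes 3 rose and 4 fell, and MLP28 was above every other group, at 22307, 22583 and 21149 normalised reads with both stimuli, 13612, 13043 and 12502 with warmth alone, 9574, 10308 and 9355 with Heatin alone and 5929, 5814 and 5808 in untreated seedlings.

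Of 19 iron genes, 11 stood higher with both stimuli than with warmth alone. Roots take up iron with the reductase FRO2 and the transporter IRT1, which the factor FIT switches on together with the partners BHLH038, BHLH039, BHLH100 and BHLH101, while ferritins store iron. Against the untreated state 7 of the 19 rose and 6 fell (median 0.02). Against warmth alone the median was 0.62, with 11 higher, where 2.32% of all genes were. Lower than with warmth alone were 0 by limma, edgeR or DESeq2, and 0 at an unadjusted p under 0.05.

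IRT1 had 1765, 1555 and 2096 normalised reads in Heatin at 27°C, 487, 176 and 380.4 with warmth alone, 2717, 2154 and 3256 with Heatin alone and 2416, 1582 and 1579 in DMSO at 22°C. The combined samples overlapped the untreated ones (difference -0.02 ± 0.27 (SE, limma adjusted p = 0.948)) and lay above all those of warmth alone (2.48 ± 0.27 (SE, limma adjusted p = 7.62e-05)). FRO2 had 415, 508 and 552 with both stimuli, 138, 98.3 and 161 with warmth alone, 861, 679.6 and 1252 with Heatin alone and 1191, 719 and 815 in untreated seedlings. It thus lay between warmth alone and the untreated samples, with differences of 1.91 ± 0.22 (SE, limma adjusted p = 0.000108) and -0.86 ± 0.22 (SE, limma adjusted p = 0.00296).

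Of the 4 partner factors, 3 instead rose above every other group. BHLH039 had 839, 950.1 and 949.9 normalised reads with both stimuli, 337, 254 and 341 with warmth alone, 384, 392 and 512 with Heatin alone and 184, 174 and 261 in untreated seedlings (2.16 ± 0.15 (SE, limma adjusted p = 6.87e-09)). BHLH038 differed from the untreated state by 1.74 and BHLH101 by 0.97, and both were also above each other group. FIT fell instead, with 500.4, 410.1 and 501 normalised reads in combined samples, against 779, 612 and 777 in untreated ones (-0.62 ± 0.11 (SE, limma adjusted p = 0.000141)). FER1, a ferritin whose gene is known to rise with iron supply, was above each other group as well, at 15890, 16987 and 18078 with both stimuli, 9981, 9002 and 12394 with warmth alone, 6739.8, 7529 and 7067 with Heatin alone and 5859.6, 4772 and 6452 in untreated seedlings.

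CYP82C4 and NAS2, genes of the iron deficiency response, also lay far above warmth alone. CYP82C4, which makes an iron-mobilising coumarin, had 111, 127 and 117 normalised reads with both stimuli, 9.55, 5.67 and 4.89 with warmth alone, 249, 221 and 359.6 with Heatin alone and 367, 183 and 209.7 in untreated seedlings. NAS2, which makes the metal chelator nicotianamine, had 210.5, 114 and 140.4 with both stimuli, 12.3, 12.3 and 9.07 with warmth alone, 651, 427 and 596 with Heatin alone and 367, 230.4 and 296 in untreated seedlings. Over warmth alone the differences were 3.99 ± 0.26 (SE, limma adjusted p = 2.70e-07) for CYP82C4 and 3.64 ± 0.22 (SE, limma adjusted p = 1.85e-07) for NAS2. Against the untreated state both fell, by -1.03 ± 0.26 (SE, limma adjusted p = 0.00282) and -0.96 ± 0.22 (SE, limma adjusted p = 0.00159). In a list of coumarin and nicotianamine genes drawn up after these values were seen, 4 of 8 were higher than with warmth alone, where 2.32% of all genes were. The number of the 19 iron genes higher than with warmth alone ranged between 6 and 12 over the alternative analyses and was 6 in the fit of all 24 samples.

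**Figure D4:**
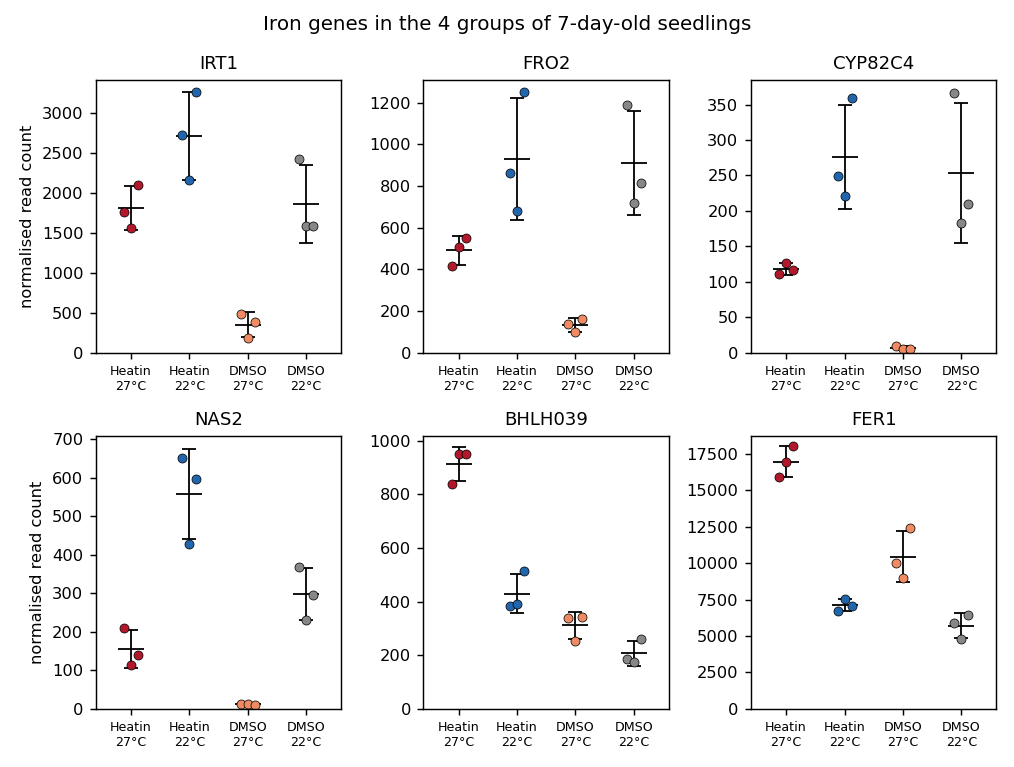
Normalised read counts (vertical linear axis starting at 0, a scale per gene) of 6 iron genes in the 4 groups of 7-day-old seedlings, with 1 point per sample and the mean with its SD as bars. CYP82C4 lies between 111 and 127 in Heatin at 27°C and between 4.89 and 9.55 with warmth alone, and BHLH039 is highest in the combined samples.

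The departure from the sum asks whether the combined change differs from the change with warmth alone plus that with Heatin alone, on the log2 scale. It was called above the sum for 78 genes (0.335%) and below it for 104 (0.447%), and the median size over all genes was 0.144. Of the 78, 56 were lowered by warmth alone and 58 were raised by Heatin at 27°C (2.32% of all genes were). Of the 104, 54 were raised by warmth alone and 72 were lowered by Heatin at 27°C (3.1% of all genes were). Warmth alone was called in either direction for 14360 of the 23252 genes tested. These shares use the same samples as the departure and have no test of their own. Low values in DMSO at 27°C raise the departure and also favour both directions seen in the 78, and high values do the reverse for the 104. These counts rested on single libraries: without replicate 2 of DMSO at 22°C there were 34 above the sum and 36 below, without replicate 1 of DMSO at 27°C 43 and 40, without replicate 2 of DMSO at 27°C 51 and 60, without replicate 1 of Heatin at 22°C 51 and 63, without replicate 2 of Heatin at 22°C 38 and 52, and without replicate 1 of Heatin at 27°C 36 and 63. There were also 40 above without replicate 3 of DMSO at 22°C and 62 below without replicate 3 of DMSO at 27°C, and the fit of all 24 samples gave 26 and 16. Other settings gave more: 203 above and 243 below with the replicate number as a block, and 138 above with DESeq2.

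The 3 largest positive departures were of CYP82C4 (3.83 ± 0.37 (SE, limma adjusted p = 0.00021)), the lipid transfer protein LTP3 (2.82 ± 0.38 (SE, limma adjusted p = 0.00336)) and NAS2 (2.73 ± 0.32 (SE, limma adjusted p = 0.0014)). LTP3 had 190.2, 90.3 and 80.0 normalised reads in Heatin at 27°C, 27.3, 23.62 and 35.6 with warmth alone, 40.6, 32.2 and 35.5 with Heatin alone and 80.5, 62.3 and 61.8 in DMSO at 22°C, so the samples of either stimulus alone lay below the untreated ones, while those of both overlapped them at the lowest combined sample and reached higher. Its difference between the combined and the untreated state was 0.71 ± 0.27 (SE, limma adjusted p = 0.034), and without replicate 1 of Heatin at 27°C the adjusted p was 0.234. Of the iron genes, FRO2, IRT1, BHLH100, BHLH101 and FER3 were also above the sum.

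The 3 largest negative departures were of AT1G54870, an aldehyde reductase of the chloroplast (-2.24 ± 0.50 (SE, limma adjusted p = 0.0706)), AT2G45360, of unknown function (-1.53 ± 0.35 (SE, limma adjusted p = 0.0849)), and AGP3 (-1.48 ± 0.34 (SE, limma adjusted p = 0.0885)). AT1G54870 had 114, 68.1 and 49.8 normalised reads with both stimuli, 199, 207 and 253 with warmth alone, 13.5, 40.9 and 39.7 with Heatin alone and 13.6, 18.9 and 20.1 in untreated seedlings. Warmth alone thus gave the highest level and the combined samples lay between it and the untreated ones. Other gene models overlap AT2G45360 on the opposite strand, so its share of the reads is uncertain. The call of AT1G54870 held in 10 of 24 alternative analyses, that of AT2G45360 in 12 of 24 and that of AGP3 in 10 of 24. Those of CYP82C4, LTP3 and NAS2 held in all 24.

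**Figure D5:**
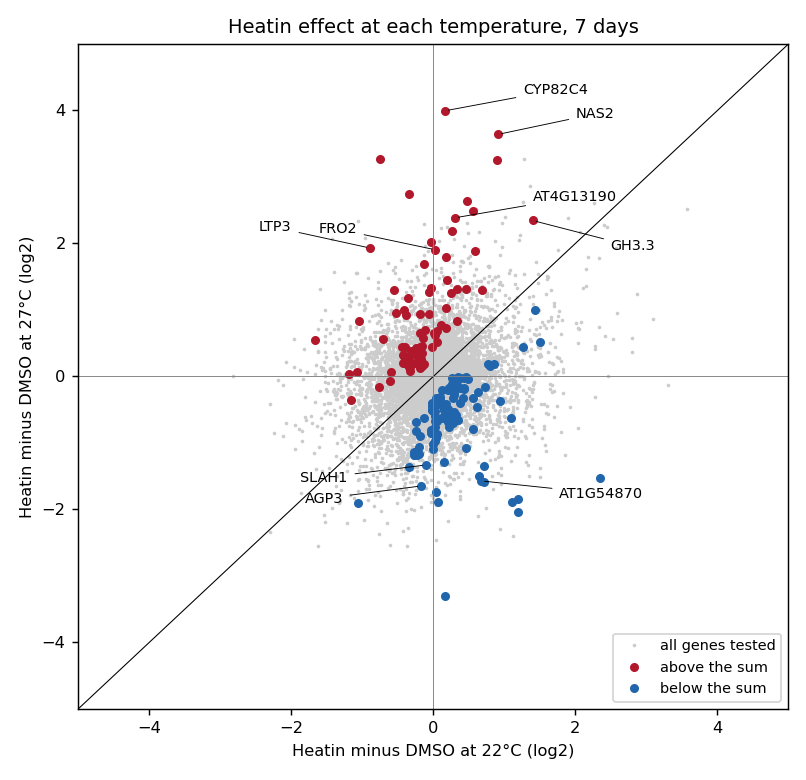
Log2 difference between Heatin and DMSO at 27°C (vertical axis) against that between Heatin and DMSO at 22°C (horizontal axis) for each gene tested, where the diagonal marks equal differences and the vertical distance from it is the departure from the sum. Called genes are red above the sum and blue below it: CYP82C4 lies at 3.99 on the vertical and 0.16 on the horizontal axis, and AT1G54870 at -1.57 and 0.67.

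Markers of other tissues were counted in the same samples. The sum of 9 seed storage and oil body genes was 101 to 1056 normalised reads in combined samples, 143 to 448 with warmth alone, 25.1 to 1713 with Heatin alone and 11.5 to 35.9 in untreated seedlings, with replicate 2 highest in both Heatin groups. Of these genes 2 rose in limma, but 7 without replicate 1 of Heatin at 27°C, 4 without replicate 3 of Heatin at 22°C, 6 in edgeR, 5 in DESeq2 and 1 with limma-voom. CRA1, named above for its rise, is itself among these 9 genes, and its reads are part of the sum. The cause of its rise was not tested. The 5 floral organ genes, of which PI and SEP3 carried most of the reads, summed to 430 to 611 with both stimuli, 604 to 641 with warmth alone, 107 to 153 with Heatin alone and 164 to 208 in untreated seedlings.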

How the data were processed

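RNA of Arabidopsis seedlings was sequenced as single-end reads. The authors aligned them to TAIR10 by TopHat and used HTSeq-count, without regard to strand, for the reads of each gene. CPuORF annotations had been taken out, and counts were divided by a DESeq depth factor per sample. The deposited values, used here as a signal, are these normalised reads for 33540 genes. All values were whole multiples of what 1 read is worth in their sample (tolerance 0.01), which gave whole reads and depth. Summary lines that name no gene were left out of all fits and came, relative to reads on genes, to 7.68% to 12.4% (not uniquely aligned), 1.13% to 1.28% (ambiguous) and 0.727% to 0.962% (no feature). Counting error limits genes with few reads.

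Because the values are not counts, log2(value + 1) was fitted by limma 3.58.1 (R 4.3.3; lmFit, then eBayes with trend) over the 12 samples of 7 days in 4 groups of 3, for 23252 genes with a mean of at least 1, with Benjamini-Hochberg adjustment and a threshold of 0.1. On this scale, log2 differences of weakly expressed genes come out too small. Beyond each other group means that the largest of 3 p-values passed, and the departure from the sum is the interaction of Heatin and temperature. The labels do not say what replicate numbers share, so p-values measure the spread between pools. Genes were named by rule: mean of at least 50, a value above 0 in the 6 samples compared, called, replicates separated, then the 10 largest rises and falls, 8 beyond each other group in each direction, and 3 departures in each direction. Members, rules and lists were chosen with earlier results of these data known, and the root hair list and that of coumarin and nicotianamine genes after their values were seen. Of the identifiers, 32835 were matched to RefSeq TAIR10.1 for symbols and promoters, and 705 were not. The fits were tested on simulated data. Alternatives were 14 settings, with edgeR 4.0.16 and DESeq2 1.42.0 on whole reads among them, and 12 fits that each left out 1 sample.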

Additional observations from a re-analysis of the deposited data

Results flagged for a closer look

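For 23 of the genes described, the effect of Heatin at 27°C differed from that at 22°C in the limma interaction test (adjusted p below 0.1), that is, the combined change departed from the sum of the single changes. Each was tested in all 12 samples, and the number of 24 alternative analyses in which the call held is given.

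Among iron genes, the departure was 3.83 ± 0.37 (SE, limma adjusted p = 0.00021) for CYP82C4, which held in 24 of 24. NAS2, with 2.73 ± 0.32 (SE, limma adjusted p = 0.0014), held in 24 of 24. FRO2, with 1.88 ± 0.31 (SE, limma adjusted p = 0.0144), held in 23 of 24. IRT1, with 1.93 ± 0.38 (SE, limma adjusted p = 0.0435), held in 21 of 24 and was lost without replicate 2 of Heatin at 22°C (adjusted p = 0.12). BHLH101, with 0.85 ± 0.16 (SE, limma adjusted p = 0.034), held in 23 of 24. BHLH100, with 2.07 ± 0.47 (SE, limma adjusted p = 0.0815), held in 11 of 24, and FER3, with 0.46 ± 0.11 (SE, limma adjusted p = 0.0878), in 10 of 24.

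LTP3, with 2.82 ± 0.38 (SE, limma adjusted p = 0.00336), and AT4G13190, with 2.09 ± 0.28 (SE, limma adjusted p = 0.00336), held in all 24. The call of EXPA4, an expansin, with 1.00 ± 0.16 (SE, limma adjusted p = 0.0105), held in 23 of 24, and that of CYP71B19, with -0.98 ± 0.14 (SE, limma adjusted p = 0.00444), in 23 of 24.

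For growth and heat genes, HSP17.4 departed by 1.28 ± 0.22 (SE, limma adjusted p = 0.0193) (held in 22 of 24) and HSP70-2 by 0.67 ± 0.14 (SE, limma adjusted p = 0.0495) (held in 18 of 24). GH3.3 departed by 0.95 ± 0.19 (SE, limma adjusted p = 0.0488) (held in 19 of 24), and its call was lost without replicate 2 of DMSO at 22°C (0.144), replicate 1 of DMSO at 27°C (0.124), replicate 2 of Heatin at 22°C (0.131) or replicate 1 of Heatin at 27°C (0.124). XTH18 departed by 0.63 ± 0.13 (SE, limma adjusted p = 0.0435) (held in 19 of 24) and SLAH1 by -1.23 ± 0.25 (SE, limma adjusted p = 0.0449) (held in 19 of 24).

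The remaining calls held in 12 of 24 or fewer and were each lost in 8 or more of the fits that left out 1 sample. They were AGP3 with -1.48 ± 0.34 (SE, limma adjusted p = 0.0885), AT1G54870 with -2.24 ± 0.50 (SE, limma adjusted p = 0.0706) and AT2G45360 with -1.53 ± 0.35 (SE, limma adjusted p = 0.0849). AT1G66100 had -0.69 ± 0.15 (SE, limma adjusted p = 0.0705) and AT1G30760 0.97 ± 0.23 (SE, limma adjusted p = 0.0972). SAUR3 had -1.08 ± 0.25 (SE, limma adjusted p = 0.0885) and SAUR30 0.59 ± 0.13 (SE, limma adjusted p = 0.0776).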

How the results depend on the processing

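The combined counts kept within 1.5 times their value in each alternative run, and 94.1% to 99.7% of the 14840 combined calls were called with the same sign in 11 of the 13 settings that kept all samples and the threshold, the others being DESeq2 (90.7%) and quantile normalisation (92.3%). edgeR called 14821 genes and DESeq2 13646. The smaller counts moved more. At an adjusted p below 0.05 there were 357 higher and 467 lower genes than with warmth alone, 64 above and 160 below each other group, and 40 above and 48 below the sum. With all 24 samples in the fit these counts were 323 and 328, 40 and 78, and 26 and 16. Without a mean-variance trend, 49 genes lay above and 117 below each other group, and 32 above and 27 below the sum. With limma-voom 167 lay below each other group, and with DESeq2 138 lay above the sum. Fits of only the compared groups give no value for genes beyond each other group or for the departure. The cause of these shifts was not tested, apart from the stricter threshold and the number of samples, which act by construction.

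Leaving out 1 sample gave 6303 to 7032 higher and 7210 to 7971 lower combined genes, 1204 to 1347 and 1772 to 2125 beyond 2-fold, 6190 to 6848 and 7124 to 7815 against Heatin alone, 303 to 644 and 394 to 802 against warmth alone, 58 to 96 above and 111 to 248 below each other group, and 34 to 90 above and 36 to 107 below the sum. The replicate numbers come from labels that name no shared harvest. Samples with the same number deviated together with a mean correlation across genes of 0.0424 (-0.083 to 0.105). For samples with different numbers the mean was -0.0212. Samples with the same number were not treated as paired, and these values cannot tell whether they share a harvest. With the replicate number as a block there were 203 genes above and 243 below the sum, and 15102 combined calls.

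Among single genes, the direction turned with quantile normalisation in 3 antenna genes, set against both the untreated state and Heatin alone: LHCB1.3 had a difference of 0 in each, because it had the highest value of all genes in each sample and this normalisation sets such values equal, LHCA4 had 0.247 in each, and LHCB4.1 had 0.131 against the untreated state and 0.0922 against Heatin alone. Over all single genes and lists, 20623 values kept their direction and call (list counts stayed within 1.5 times), 727 lost the call, 214 counts moved by over 1.5 times and 6 turned.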
